A study of Arabidopsis thaliana with 12 samples.

Results

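The plastid thioredoxin system and the enzymes that remove peroxide in plastids were followed over 6 spots of an expression array of Arabidopsis thaliana. The 6 spots, of 3439 on the array, were annotated to 8 nuclear genes, and no other spot carried any of the 8. NTRC, AT2G04700 (ferredoxin-thioredoxin reductase) and AT3G52960 (a peroxiredoxin) each had 1 spot of their own. The genes TAPX and SAPX shared 2 spots, called spot A and spot B here in the order of their spot numbers, and the genes TY1, THX and ty2 shared 1 spot. A shared spot gives 1 value for all its genes, which cannot be told apart there.

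Total RNA of wild type (WT) was compared with that of the tpt1 mutant, both of ecotype Wassilevskija, in 6 samples each, numbered 1 to 6 in both groups. By the labels, the chloroplasts of tpt1 keep less than 5% of their triose phosphate transport. The triose phosphate translocator of the chloroplast envelope passes fixed carbon to the cytosol. The tissue, the growth conditions, the way the mutant was made and what a sample number stands for are not given in the sources used here.

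In plastids in the light, ferredoxin reduced by photosystem I passes electrons through ferredoxin-thioredoxin reductase to small thioredoxin proteins, which switch enzymes of carbon fixation by reducing their disulfides. NTRC is a thioredoxin reductase with a thioredoxin domain of its own and draws on NADPH, so that it also works in the dark. Hydrogen peroxide formed in plastids is removed by peroxiredoxins, some of which thioredoxins and NTRC recharge. Whether AT3G52960 is among those was not examined. Ascorbate peroxidases at the thylakoid membrane (TAPX) and in the stroma (SAPX) also remove hydrogen peroxide.

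The deposited intensities ran from 0 to 100 on a linear scale, and the arrays of the 2 groups differed as a whole. Array medians, taken on the log2 scale without the spots at 0, were -2.38 to -1.72 for WT and -1.42 to -0.88 for tpt1. Over the 2849 spots with at least 4 values above 0 in each group, the median log2 change from WT to tpt1 was 0.86 on the deposited scale, 0.08 after quantile normalization and -0.01 with median centring of each array. The changes below were taken after quantile normalization unless another scale is named, and they are relative to the rest of the array. On that scale limma called 12.8% of the tested spots (Benjamini-Hochberg adjusted p under 0.05 over the whole array), 6.39% higher and 6.39% lower in tpt1. Samples with the same number in the 2 groups deviated together, and so did samples with neighbouring numbers (1 and 2, 3 and 4, 5 and 6, the 3 sets), with a correlation of 0.63 within neighbours of a group. Nothing in the labels says that the samples came from separate plants. Given the likeness of neighbours, the p-values may therefore be too small and may measure technical spread only. Leaving out the pairing by number can act the other way, and with the number as a block 31.8% of the tested spots were called. No spot was annotated to the translocator gene, and 1 of 4 leaf marker genes and 0 of 12 root, seed and flower marker genes were on any spot. So neither the genotype labels nor the tissue could be checked.

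All 6 spots passed the filter on low values. AT2G04700 was called lower in tpt1, 0 of the 6 were called higher, and 5 did not pass the threshold. Over all tested spots 6.39% were called higher and 6.39% lower. The median change of the 6 was -0.44, beside 0.08 for all tested spots. With the sample number as a block, which called 31.8% of all spots, 17.5% higher and 14.3% lower, NTRC was higher, AT2G04700 was lower and the other 4 did not pass. The same 2 were called when neighbouring numbers were averaged to 3 values a group and the set was the block, which called 12.3% of all spots, 6.88% higher and 5.44% lower. With neighbouring numbers as a random block, which called 4.28%, 1.65% higher and 2.63% lower, 0 of the 6 passed. NTRC was above WT and AT2G04700 below it in 6 of 6 numbers on each of the 3 scales. The share of all spots that did so was not counted, and neighbouring numbers are alike, so the 6 are not independent. On the deposited scale, where the median change of all tested spots was 0.86, spot B was also above WT in 6 of 6.

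The scale set how many of the 6 were called. On the deposited scale, where 49.0% of all spots passed, 46.4% higher and 2.56% lower, NTRC and spot B were higher and 0 were lower. With median centring, where 17.4% passed, 4.60% higher and 12.8% lower, 0 were higher and AT2G04700 alone was lower.

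**Figure D1:**
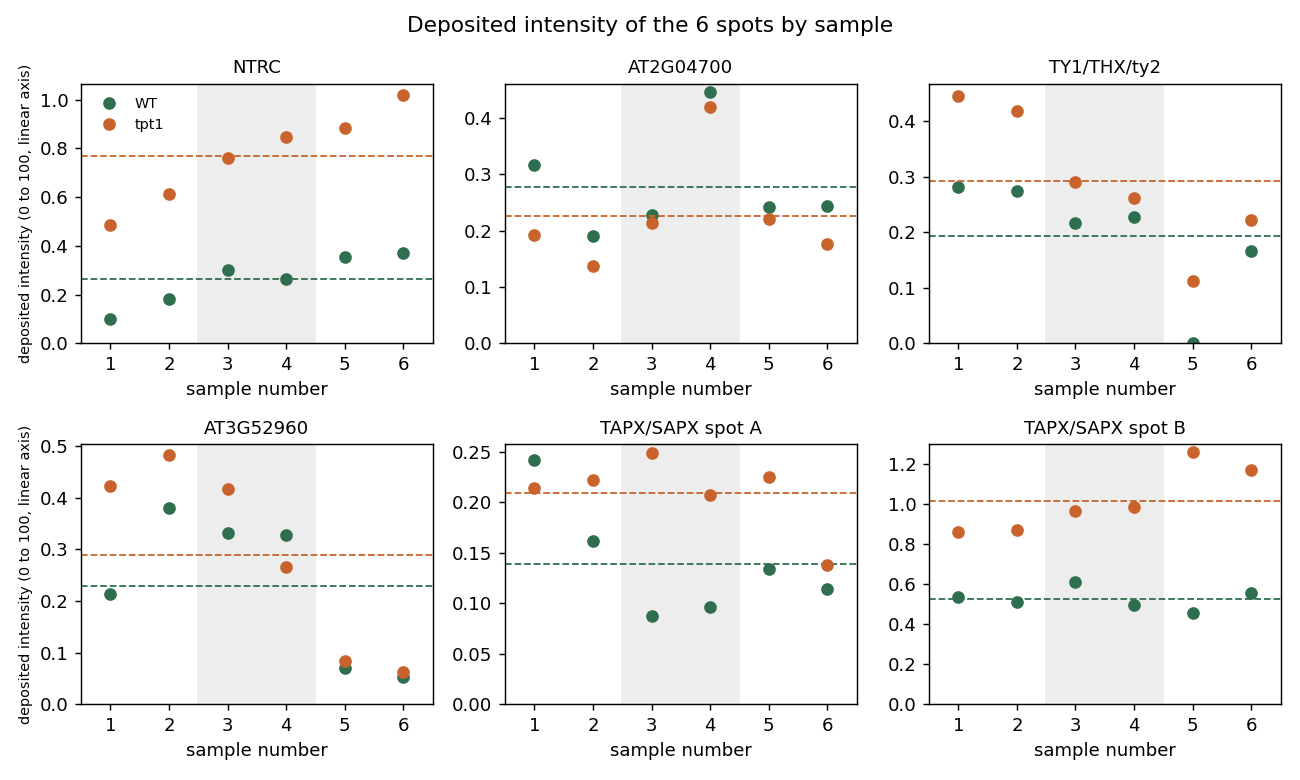
Deposited intensity (y axis, linear, starting at 0) of the 6 spots against sample number (x axis), with WT in green, tpt1 in orange, dashed lines at the group means and the middle set of neighbouring numbers in grey. For NTRC and spot B of TAPX and SAPX every tpt1 sample lies above every WT sample, as for 28.0% of all tested spots. For AT2G04700 the groups overlap, and AT3G52960 is low in numbers 5 and 6 of both groups.

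NTRC had deposited intensities of 0.101, 0.183, 0.300, 0.266, 0.353 and 0.373 in WT 1 to WT 6. In tpt1 1 to tpt1 6 it had 0.486, 0.612, 0.763, 0.848, 0.884 and 1.02. The lowest tpt1 sample lay above the highest WT sample, as was so for 28.0% of all tested spots on this scale. The log2 change there was 1.63 (SE 0.31, 95% confidence interval 0.96 to 2.31), a 3.1-fold rise, at a limma adjusted p of 0.0009998. The change of NTRC stood at percentile 89.6 of all tested spots on that scale.

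After quantile normalization NTRC was at -1.66 ± 0.92 in WT and -0.83 ± 0.60 in tpt1 (mean log2 intensity ± SD, n = 6 and 6), and the groups overlapped. Its position among the spots above 0 of the same array ran from percentile 15.7 to 71.5 in WT and from 45.3 to 83.6 in tpt1. The log2 change was 0.83 (SE 0.40, interval -0.03 to 1.70), 1.78-fold, and did not pass (adjusted p = 0.209). Most of the spread lay between the sets, in both genotypes: in numbers 1 and 2 NTRC averaged -2.71 in WT and -1.54 in tpt1, and in numbers 5 and 6 -0.78 and -0.28. With the number as a block the same change had an SE of 0.15 and passed (adjusted p = 0.00248), as it did with averaged neighbours (adjusted p = 0.0386). It did not pass with neighbouring numbers as a random block (adjusted p = 0.444). Within the 3 sets the change was 1.16, 0.83 and 0.51.

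AT2G04700, the reductase that takes its electrons from ferredoxin, had deposited intensities of 0.316, 0.190, 0.227, 0.446, 0.243 and 0.243 in WT 1 to WT 6. The tpt1 samples had 0.193, 0.137, 0.213, 0.420, 0.220 and 0.177, in the same order. Each tpt1 sample was below the WT sample of the same number, but the groups overlapped widely, and number 4 was the highest in both. On this scale the log2 change was -0.33 (SE 0.29, interval -0.96 to 0.30) and did not pass (adjusted p = 0.353), and stood at percentile 5.62 of all tested spots.

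Relative to the rest of the array AT2G04700 fell by 1.27 on the log2 scale (SE 0.35, interval -2.02 to -0.52), 2.41-fold, from -1.49 ± 0.46 to -2.76 ± 0.76 (n = 6 and 6, adjusted p = 0.0297). Its percentile on the array was 33.3 to 68.4 in WT and 8.59 to 45.0 in tpt1. The groups still overlapped, since tpt1 4, at -1.75, lay above WT 2 and WT 3, at -2.20 and -1.79. Within the 3 sets the change was -1.75, -0.90 and -1.16. With the number as a block the adjusted p was 0.000904. The call was lost with neighbouring numbers as a random block (adjusted p = 0.217). It was also lost without WT 4 (adjusted p = 0.0639), WT 5 (0.0556), WT 6 (0.0508), tpt1 1 (0.0607) or tpt1 3 (0.0524).

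**Figure D2:**
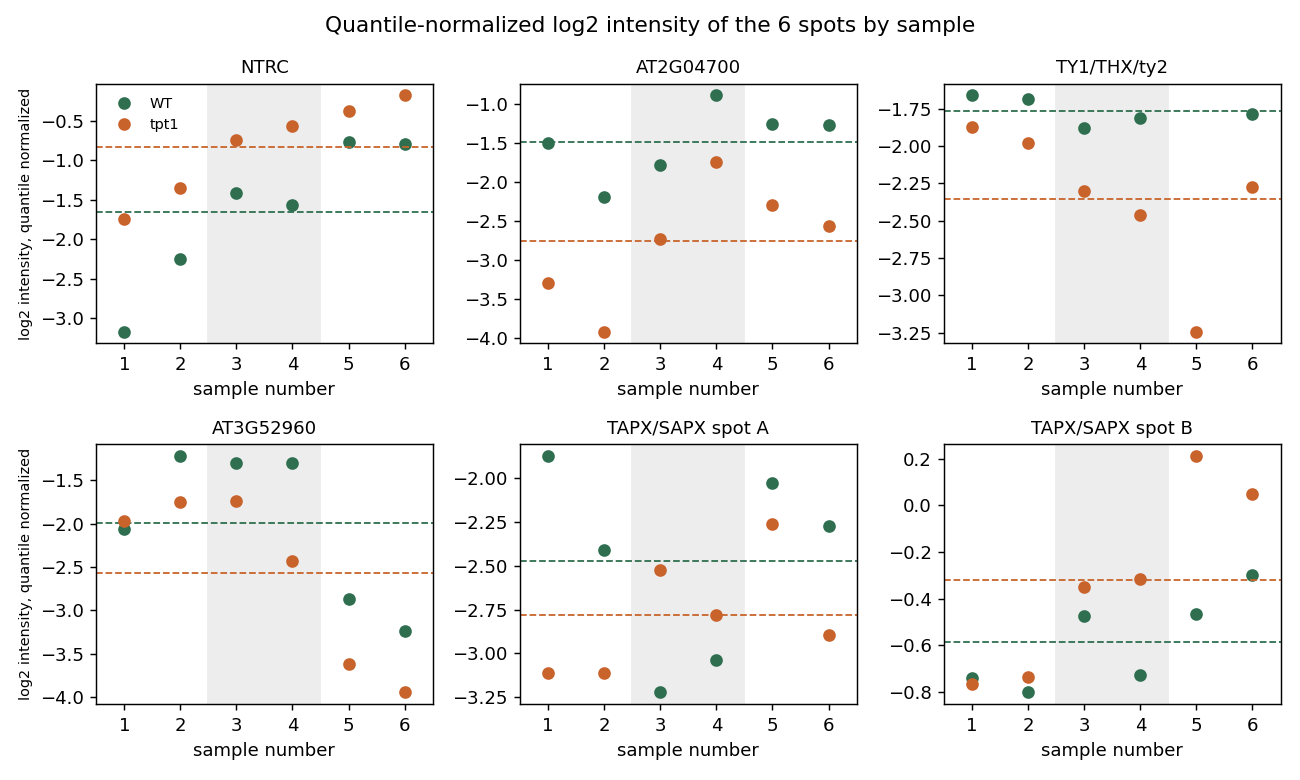
Log2 intensity after quantile normalization (y axis) of the 6 spots against sample number (x axis), with WT in green, tpt1 in orange and dashed group means. AT2G04700 is lower in tpt1 in each of the 6 numbers, NTRC is higher in each, and both differ between the sets.

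A factor common to all spots of an array cancels in the ratio of 2 of them, though other kinds of scaling do not, and the 2 reductases were also set against each other within each array. The ratios are of deposited intensities. The ratio of NTRC to AT2G04700 was 0.319, 0.963, 1.32, 0.597, 1.45 and 1.53 in WT 1 to WT 6. The 6 tpt1 samples, in order of number, had 2.51, 4.47, 3.58, 2.02, 4.01 and 5.76. All 6 tpt1 samples lay above all 6 WT samples, and the ratio was higher in tpt1 by 1.96 on the log2 scale, 3.89-fold, from -0.15 ± 0.89 to 1.81 ± 0.55 (SD, n = 6 and 6). The two-sided exact permutation test gave p = 0.00216, the smallest that 6 against 6 samples allow, and p = 0.00649 adjusted over the 3 ratios examined. Exchanging the groups only within numbers gave the smallest possible p of 0.0312, or 0.0938 adjusted over the 3 ratios, and with neighbours averaged to 3 values a group p was 0.1, again the smallest possible. Within the sets the difference was 2.60, 1.60 and 1.69. This pair was chosen with earlier results of these data known, which the adjustment over the 3 ratios does not cover.

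Ratios without overlap were common on this array. Of all 2838153 pairs of spots above 0 in all samples, 12.1% had ratios whose groups did not overlap. Of the 10 pairs among the 5 member spots above 0 in all samples, 1 did, the pair of reductases. Set against each of the 2382 other such spots, NTRC had a ratio higher in tpt1 without overlap for 287 and lower for 0. AT2G04700 had a ratio lower in tpt1 without overlap for 251 and higher for 1. The 12.1% of all pairs is also the average share for a single spot, which neither reductase exceeded. Spot B had 242 higher and 46 lower, spot A 47 and 49, and AT3G52960 2 and 17.

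**Figure D3:**
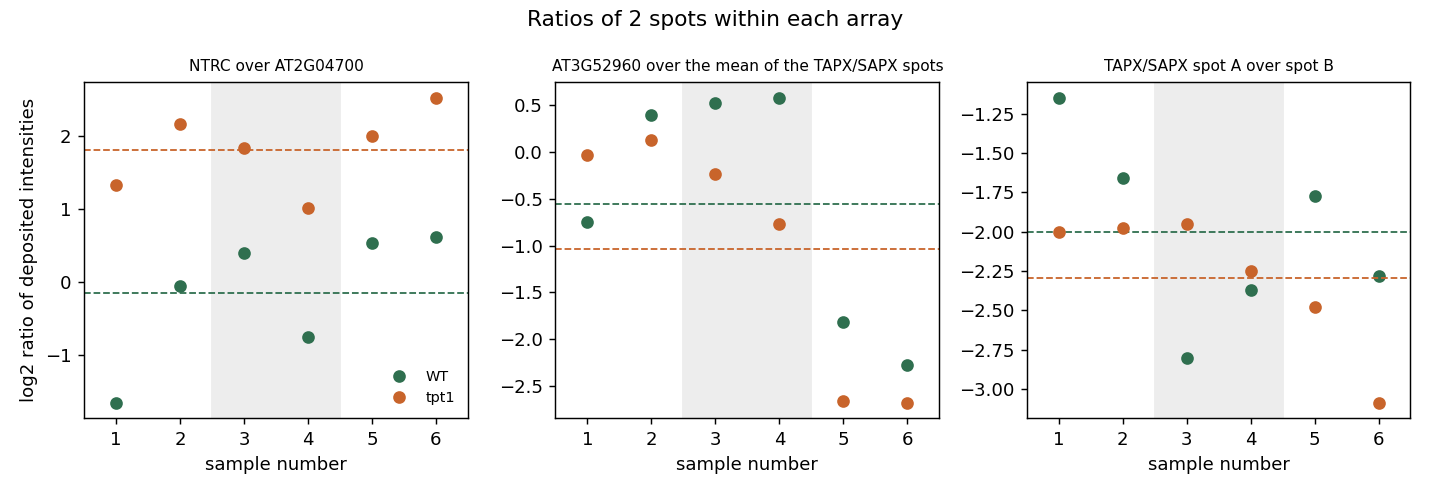
Log2 ratio of the deposited intensities of 2 spots of the same array (y axis) against sample number (x axis) for the 3 ratios, with WT in green, tpt1 in orange and dashed group means. The ratio of NTRC to AT2G04700 separates the groups, from -1.65 to 0.62 in WT and 1.01 to 2.53 in tpt1. So do, in either direction, the ratios of 12.1% of all pairs of spots above 0 in all samples. The other 2 ratios overlap.

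TY1 and ty2 encode thioredoxins of type y and THX the thioredoxin of type x, both kinds known for passing electrons to peroxiredoxins in plastids. Their shared spot had deposited intensities of 0.281, 0.274, 0.216, 0.227, 0 and 0.167 in WT 1 to WT 6. In tpt1 it read 0.445, 0.418, 0.290, 0.261, 0.112 and 0.222, in the same order. Number 5 was the lowest in both groups, and the reading of 0 in WT 5 was taken as missing, so that 5 WT values entered the fit.

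On the normalized scale the 5 WT values were close together, at -1.76 ± 0.09, and the tpt1 values spread further, at -2.36 ± 0.49 (SD, n = 5 and 6). The 2 spreads are not alike in content: WT 5 is left out, while tpt1 5, the lowest tpt1 value at -3.24, is kept. The highest tpt1 value, -1.87, lay just above the lowest WT value, -1.88. The log2 change was -0.59 (SE 0.25, interval -1.14 to -0.04) and did not pass (adjusted p = 0.155), nor with the number as a block (-0.41, adjusted p = 0.105). The sign turned on the deposited scale, to 0.21 (adjusted p = 0.604). The two-sided exact permutation test of this spot alone, also without WT 5, gave p = 0.0152 with no adjustment over the array. Leaving out tpt1 5 as well gave a limma change of -0.41 (adjusted p = 0.231). With the zero kept and a pseudocount of 0.1 the change was -0.13 (adjusted p = 0.883).

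AT3G52960, a plastid peroxiredoxin, reduces peroxides with electrons from thiols. It had deposited intensities of 0.214, 0.380, 0.332, 0.327, 0.0701 and 0.052 in WT 1 to WT 6. The values in tpt1, from number 1 to 6, were 0.422, 0.481, 0.417, 0.266, 0.0842 and 0.0625. Numbers 5 and 6 were far below the others in both genotypes, and each of these 4 samples was below each of the other 8. The genotypes overlapped.

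Normalized levels of AT3G52960 were -2.0 ± 0.88 for WT and -2.58 ± 0.97 for tpt1 (SD, n = 6 each). The log2 change of -0.58 (SE 0.49, interval -1.63 to 0.47, adjusted p = 0.511) did not pass and turned to 0.31 on the deposited scale (adjusted p = 0.699). With the number as a block the adjusted p was 0.0503, just above the threshold, with 5 of 6 numbers lower in tpt1. The interval of the unpaired fit spans a fall beyond the 1.27 found for AT2G04700 as well as a rise.

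TAPX and SAPX encode the thylakoid and the stromal ascorbate peroxidase, and their 2 shared spots are given one after the other. Spot B had deposited intensities of 0.536, 0.511, 0.611, 0.497, 0.457 and 0.554 in WT 1 to WT 6. Its tpt1 intensities were 0.859, 0.871, 0.964, 0.986, 1.26 and 1.17, by number. Every tpt1 sample was above every WT sample, as was so for 28.0% of all tested spots on the deposited scale. The deposited change was 0.94 (SE 0.14, interval 0.65 to 1.23, adjusted p = 0.000152). The median of all tested spots was 0.86 on this scale, and spot B stood at percentile 55.7. After quantile normalization the change was 0.27 (SE 0.19, interval -0.14 to 0.67, adjusted p = 0.411). Median centring gave 0.07 (adjusted p = 0.881). The normalized levels were -0.58 ± 0.20 and -0.32 ± 0.40 (WT and tpt1, n = 6 each).

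Spot A had deposited intensities of 0.242, 0.162, 0.0876, 0.0960, 0.134 and 0.114 in WT 1 to WT 6. For tpt1 the intensities by number were 0.214, 0.222, 0.249, 0.207, 0.225 and 0.137. WT 1 was above 5 of the 6 tpt1 samples, and in WT numbers 3 and 4 were the lowest. The normalized levels were -2.47 ± 0.54 and -2.78 ± 0.34 (n = 6 and 6), with a change of -0.31 (SE 0.29, interval -0.93 to 0.31, adjusted p = 0.557). The direction depended on the scale and on the set. The deposited change was 0.65 (adjusted p = 0.0746), and within the 3 sets the normalized change was -0.97, 0.48 and -0.43.

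The ratio of spot A to spot B was -2.0 ± 0.59 in WT and -2.29 ± 0.44 in tpt1 on the log2 scale (n = 6 and 6). The groups overlapped (difference -0.29, two-sided exact permutation p = 0.372, adjusted p = 0.524). After quantile normalization the difference was -0.57 (exact permutation p = 0.0563, adjusted p = 0.0844). The ratio of AT3G52960 to the mean of these 2 spots, which sets a peroxiredoxin against the ascorbate peroxidases, overlapped as well (difference -0.48, exact permutation p = 0.524, adjusted p = 0.524). Neither ratio passed the threshold.

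**Figure D4:**
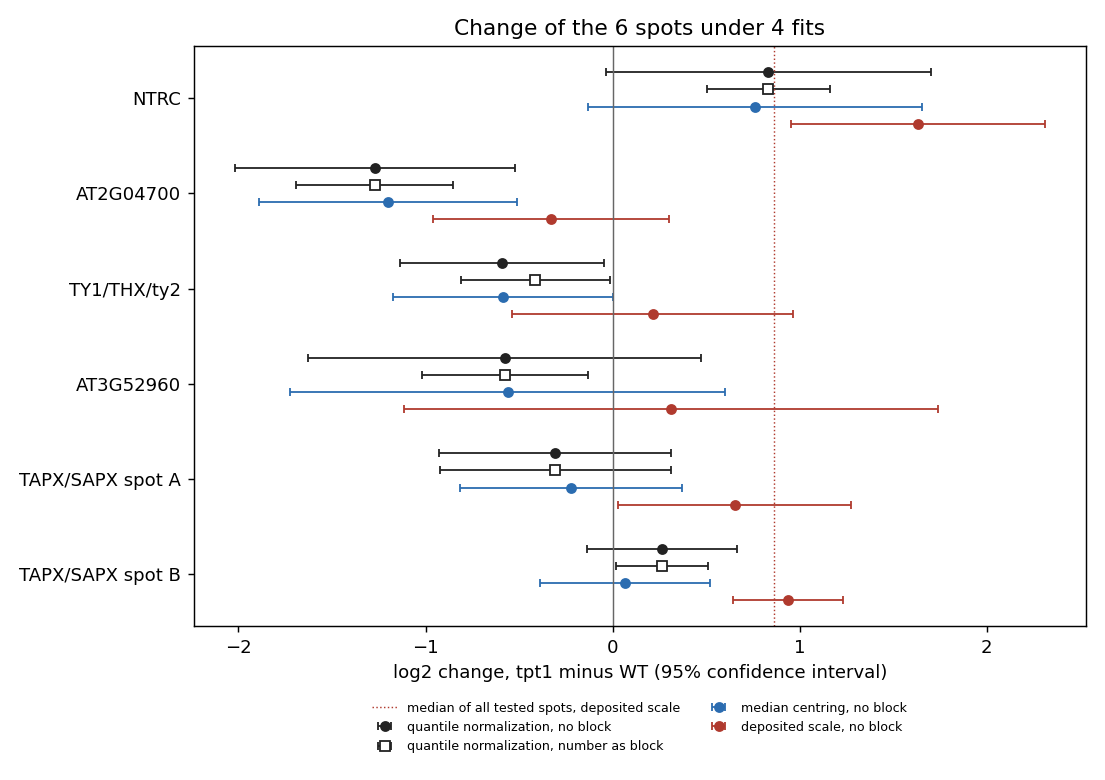
Log2 change from WT to tpt1 with its 95% confidence interval (x axis) for the 6 spots under 4 fits, with 0 as a solid line and the median of all tested spots on the deposited scale, 0.86, as a dotted line. AT2G04700 lies below 0 in all 4 fits and NTRC above 0 in all 4, while the shared thioredoxin spot, AT3G52960 and spot A change side between the deposited and the other scales.

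The sets of neighbouring numbers carried more of the spread than the genotype in 4 of the 6 spots. For AT3G52960 the sets took 79.8% of the sum of squares of the normalized log2 values and the genotype 10.4%. For NTRC these shares were 64.9% and 25.7%, and for spot B they were 67.2% and 17.6%. Spot A had 23.8% between sets and 12.1% between genotypes, with 64.1% left over. AT2G04700 was the reverse, with 25.1% between sets and 55.1% between genotypes. The shared thioredoxin spot had 32.0% and 35.7%, with WT 5 missing and tpt1 5 kept, so its shares are not fully comparable. Over the 2383 spots above 0 in all samples, to which the thioredoxin spot does not belong, the median shares were 40.2% for the sets and 14.0% for the genotype. Of those spots, 85.9% had a smaller genotype share than AT2G04700 and 64.8% a smaller one than NTRC. On the normalized scale NTRC and spot B were highest in numbers 5 and 6 of both genotypes, and AT3G52960 was lowest there.

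**Figure D5:**
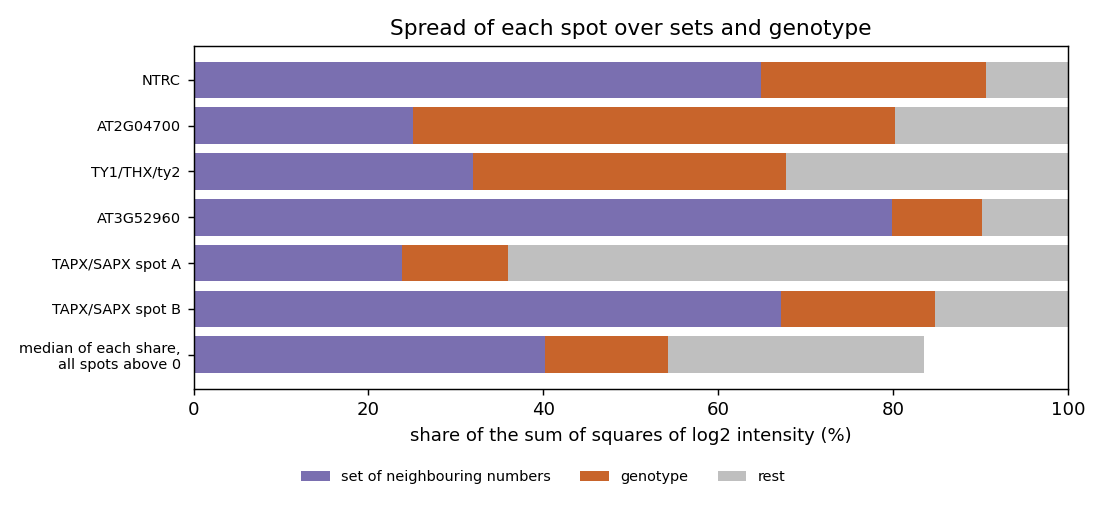
Share of the sum of squares of the normalized log2 intensity (x axis, in percent) that lay between the sets of neighbouring numbers, between genotypes and in the rest, for each of the 6 spots and as the median of each share over 2383 spots (those 3 medians do not add to 100). The genotype share is largest for AT2G04700, at 55.1%, and the set share for AT3G52960, at 79.8%.

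Few other genes of the pathway could be read. Of 25 listed genes of the plastid thioredoxin system 5 were on the array, all of them members, and of 19 listed genes of plastid peroxide removal 5 were. Of these 5, 3 were members. The plastid glutathione reductase AT3G54660 lay on a spot shared with a gene outside the list, so its values were not used. The fifth was SRX, for sulfiredoxin, which restores overoxidized peroxiredoxins. SRX had deposited intensities of 0.00682 to 0.131 in WT and 0.293 to 0.381 in tpt1. The groups did not overlap there, as was so with tpt1 higher for 28.0% of all tested spots on the deposited scale. After normalization the groups stayed apart by a narrow margin, as higher tpt1 values without overlap were found for 5.27% of all tested spots, and the highest WT value was -2.3494 beside a lowest tpt1 value of -2.3461. The normalized change of 1.49 (SE 0.62) did not pass (adjusted p = 0.138, and 0.05004 with the number as a block), and it was 2.45 on the deposited scale (adjusted p = 0.00463). WT 2 was far below the other WT samples, and without it the change was 0.83 (adjusted p = 0.0468). Of 17 listed genes of the same families outside the plastid 0 were on the array.

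Among 19 listed enzymes that thioredoxins switch or reduce, 4 had a spot of their own and 3 of these were tested. Beside 6.39% higher and 6.39% lower over all tested spots, 0 were higher, 1 was lower and 2 did not pass, with a median change of -0.48. The lower one was PRK, which makes the carbon dioxide acceptor of the Calvin-Benson cycle (-0.87, SE 0.18, adjusted p = 0.0062). PRK also passed as lower on the deposited scale (-0.47, adjusted p = 0.0477), where 2.56% of all tested spots did. With neighbouring numbers as a random block it passed as lower too (adjusted p = 0.043), as did 2.63% of all tested spots. Without numbers 1 and 2 it did not pass (-0.62, adjusted p = 0.087). CHLM, a methyltransferase of chlorophyll synthesis, was at -0.48 (adjusted p = 0.299), and at 0.37 on the deposited scale. AT5G58330, the NADP-dependent malate dehydrogenase that exports reducing power from plastids, was at 0.20 (adjusted p = 0.694), and passed as higher on the deposited scale, at 1.14 (adjusted p = 0.0227). SBPASE, a phosphatase of the Calvin-Benson cycle, was at 0 in 11 of 12 samples and was not tested.

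The genes with the pattern most like each spot were sought among up to 478 spots of 1 gene above 0 in all samples, by Pearson's r of the normalized log2 intensity. These values are descriptions: the samples share arrays, numbers and sets, and a high r can come from the sets as well as from the genotype. NTRC was nearest to AGL54, named as an AGAMOUS-like gene (r = 0.93, Spearman's rho = 0.92, 12 samples), then to Z-ISO, the carotenoid isomerase gene (r = 0.93), and to ETFQO (r = 0.91), for an electron-transfer flavoprotein oxidoreductase. AT2G04700 was nearest to AT1G54500 (r = 0.89, rho = 0.87), to PRK (r = 0.88, rho = 0.78) and to AT4G13550 (r = 0.87, rho = 0.80). On the deposited scale its r with PRK was 0.68 and that with AT4G13550 only 0.27. The shared thioredoxin spot was nearest to AT3G04210 (r = 0.97 over 11 samples), AT5G52810 (0.94) and AT1G33250 (0.92). With the group means subtracted the r values were 0.95, 0.94 and 0.87 for NTRC, and 0.94, 0.92 and 0.86 for the thioredoxin spot. For AT2G04700 they fell to 0.76 (AT1G54500), 0.71 (PRK) and 0.67 (AT4G13550).

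AT3G52960 was nearest to AT5G11010 (r = 0.95), AT5G11650 (0.94) and AT4G22190 (0.93). With the group means subtracted the values were 0.94, 0.94 and 0.96, so the likeness remained without the difference between genotypes. The sets took 79.8% of the sum of squares of AT3G52960, and whether the likeness came from them was not tested. Spot B was nearest to APS4 (r = 0.94), the photosystem II gene PSBW (0.93) and AT2G30320 (0.93). For PSBW the r was 0.37 on the deposited scale. Spot A had no near match, with r = 0.77 for AT1G49850, 0.75 for CHLM and 0.68 for AT1G30700. The r of spots A and B with each other, though both are annotated to TAPX and SAPX, was 0.16 over 12 samples (rho = 0.20), 0.36 with the group means subtracted and 0.52 on the deposited scale.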

How the data were processed

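The authors deposited 1 intensity per spot and sample, on a linear scale from 0 to 100. The sources used here do not describe the reading, background correction or scaling, so scale, centring and the meaning of 0 stay unknown, and the number of arrays limits the precision. Gene names come from the platform annotation, and loci and symbols from RefSeq (TAIR10.1, names only).

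Zeros were set as missing, log2 values were quantile normalized, and spots with at least 4 values above 0 in each group were tested with limma 3.58.1 (trend in the prior variance, statmod 1.5.0, R 4.3.3), adjusted over all tested spots at 0.05. The method was tested on simulated data with independent samples. The simulation held no likeness of same-numbered or neighbouring samples, so it cannot show how the fits behave under it. Ratios within an array were tested by exact permutation. Figures used matplotlib 3.10.9.

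The members, gene lists, alternatives and naming rule (members, listed pathway spots, the 3 nearest spots of 1 gene) were chosen with earlier results of these data known.

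Same-numbered samples correlated at 0.47 to 0.61 across 2383 spots after subtraction of the group means, and 12 of 12 matched their own number best, so by the rule that every pair exceeds 0.1 the numbers pair the samples. The labels do not say what a number marks.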

Additional observations from a re-analysis of the deposited data

Results flagged for a closer look

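One sample stood apart from the rest of its group among the 26 groups of values examined, where about 1.3 are expected by chance. SRX, the sulfiredoxin gene, had a normalized log2 intensity of -6.85 in WT 2, and the other 5 samples of WT lay between -3.31 and -2.35. The deposited reading of WT 2 was 0.00682, close to the lower end of the scale.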

How the results depend on the processing

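The count of 364 called spots became 1396 on the deposited scale, 906 with the replicate block (the sample number), 122 with a random block of neighbouring numbers, 180 without numbers 1 and 2 and 154 without numbers 3 and 4. Leaving out single samples gave 272 to 338.

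NTRC, at 0.83 without a call, passed with the replicate block (0.83, adjusted p = 0.00248), after averaging neighbouring numbers (0.83, 0.0386), and on the deposited scale (1.63, 0.0009998). Single samples left out moved it from 0.53 (without WT 1) to 1.03. AT2G04700 lost its call on the deposited scale (-0.33, adjusted p = 0.353), with the random block (-1.27, 0.217), and without numbers 1 and 2 (-1.07, 0.0779), 3 and 4 (-1.47, 0.076) or 5 and 6 (-1.26, 0.0885), fits with fewer samples. Single samples left out gave -1.48 to -1.05.

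The thioredoxin spot turned to 0.21 on the deposited scale, and its exact permutation p at -0.59 was 0.0152 unadjusted, with WT 5 missing. Without tpt1 5 as well its change was -0.41. AT3G52960 turned to 0.31 on the deposited scale, and single samples left out gave -0.82 to -0.30 (-0.30 without tpt1 6, -0.36 without tpt1 5). Spot A of TAPX and SAPX turned to 0.65 there, and to 0.026 without numbers 1 and 2, the cause of which was not tested. Spot B passed as higher there (0.94, adjusted p = 0.000152). On the deposited scale all tested spots had a median change of 0.86. CHLM turned to 0.37 on it, and AT5G58330 turned to -0.047 without numbers 5 and 6 (cause not tested). Single samples left out moved spot A from -0.46 to -0.19 (-0.19 without WT 1), spot B from 0.16 to 0.36 (0.16 without tpt1 5) and AT5G58330 from 0.00023 (without WT 6) to 0.32 (without WT 3), none past the threshold.

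The ratio of NTRC to AT2G04700 ran from 1.66 to 2.12 without single samples and was 2.11 after quantile normalization, an alternative added after seeing the data. So was the averaging of neighbours, which gave an exact permutation p of 0.1 at 1.96, a design that cannot go lower. The other 2 ratios, of AT3G52960 to the mean of spots A and B and of A to B, were -0.56 and -0.57 after quantile normalization (exact permutation p = 0.429 and 0.0563), and from -0.83 to -0.16 and -0.45 to -0.12 without single samples, and did not pass in any of these. Beside the call of NTRC, the replicate block changed no other call of a member spot.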
